A study of Homo sapiens with 18 samples.

Results

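The lineage factors GATA4, GATA6, HNF4A, FOXA1, FOXA2, FOXA3, PDX1 and ONECUT2 were followed by name through the deposited expression table, in which all 8 were present among 40266 gene symbols. RNA-seq had been performed on 18 libraries of 2 human pancreatic ductal adenocarcinoma (PDAC) lines, Panc1, derived from a primary tumor and used as a mesenchymal model, and Panc89, derived from a lymph node metastasis and used as an epithelial model. Each line was present as untreated parental cells, as Holoclone cells and as Paraclone cells, with 3 libraries in each of the 6 groups. Holoclones are compact colonies regarded as rich in stem-like tumor cells and Paraclones are loose colonies of more differentiated cells. Every Holoclone or Paraclone group was grown from 1 single-cell clone, and its 3 libraries came from different passages of that clone, so the spread between libraries, and every p-value here, covers passages of the same cells and not independent clones.

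GATA4 and GATA6 are zinc-finger factors that open chromatin in the early endoderm, and the FOXA proteins are forkhead pioneer factors that do so together with them in gut, liver and pancreas. HNF4A, a nuclear receptor, and ONECUT2, a cut-homeodomain factor, maintain epithelial programs of gut and liver, and PDX1 is the homeodomain factor required for the formation of the pancreas. In PDAC, GATA6, HNF4A and the FOXA factors are known as markers of the classical, gland-forming tumor type.

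Values are TPM, estimated transcript amounts scaled to transcript length and to the same library total, so that levels of different genes can be set side by side. Differences are given on the scale log2(TPM + 1), which understates changes of genes near or below 1 TPM. A change was called at an adjusted p under 0.05 in limma across 16093 genes that reached 1 TPM in at least 3 libraries. Of the 8 members, 6 passed this filter, and HNF4A and ONECUT2 did not. In these bulk libraries a smaller number of expressing cells and less RNA per cell cannot be told apart.

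FOXA2 was the leading FOXA gene in Panc1 cells of every variant, while in Panc89 the leading gene depended on the clone. The levels of FOXA2 were 37.0, 62.3 and 71.3 TPM in the libraries of Panc89 Holoclone cells and 1.30, 0.783 and 1.14 TPM in those of Panc89 Paraclone cells. The libraries of the parental Panc89 cells lay between them at 3.66, 5.17 and 4.17 TPM. Thus, the 3 Panc89 variants did not overlap, and the Holoclone mean was 53.0-fold above the Paraclone mean, a log2 difference of 4.76 (95% confidence interval 4.32 to 5.19, adjusted p = 1.74e-10 in limma).

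In Panc1 cells, FOXA2 was much more even. It ranged from 30.8 to 42.3 TPM in parental, from 30.0 to 31.7 TPM in Holoclone and from 22.1 to 27.7 TPM in Paraclone cells. The Holoclone libraries were all above the Paraclone libraries, but the log2 difference of 0.37 (95% confidence interval -0.07 to 0.81) missed the threshold (adjusted p = 0.178), whereas it was called when only these 2 groups entered the fit (adjusted p = 0.0458). The Holoclone against Paraclone difference in Panc89 exceeded that in Panc1 by 4.39 on the log2 scale (adjusted p = 2.27e-08).

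FOXA1, the FOXA factor best known as a partner of nuclear receptors, ran the other way and did so in both lines. In Panc89 it measured 29.7, 33.5 and 29.1 TPM in Paraclone cells, 14.2, 13.0 and 15.4 TPM in parental cells and 9.38, 4.41 and 3.37 TPM in Holoclone cells. In Panc1 it measured 7.31, 5.83 and 8.72 TPM in Paraclone cells, 1.04, 0.886 and 0.850 TPM in Holoclone cells and 0.465, 0.644 and 0.323 TPM in parental cells. In both lines every Paraclone library was therefore above every Holoclone and parental library.

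The log2 difference of FOXA1 between Holoclone and Paraclone cells was -2.09 in Panc1 (SE 0.24, adjusted p = 5.73e-06) and -2.34 in Panc89 (SE 0.24, adjusted p = 1.80e-06). The difference between the lines was -0.25, with a 95% confidence interval of -0.96 to 0.46 (adjusted p = 0.608). This value depends on single libraries of the Panc89 Holoclone cells. Without replicate 1, the difference between the lines became -0.61 and passed the threshold (adjusted p = 0.0378). That library had the highest FOXA1 and the lowest FOXA2 of its group. Without replicate 3 of the same group, the difference was 0.010 and was not called (adjusted p = 0.985).

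**Figure D1:**
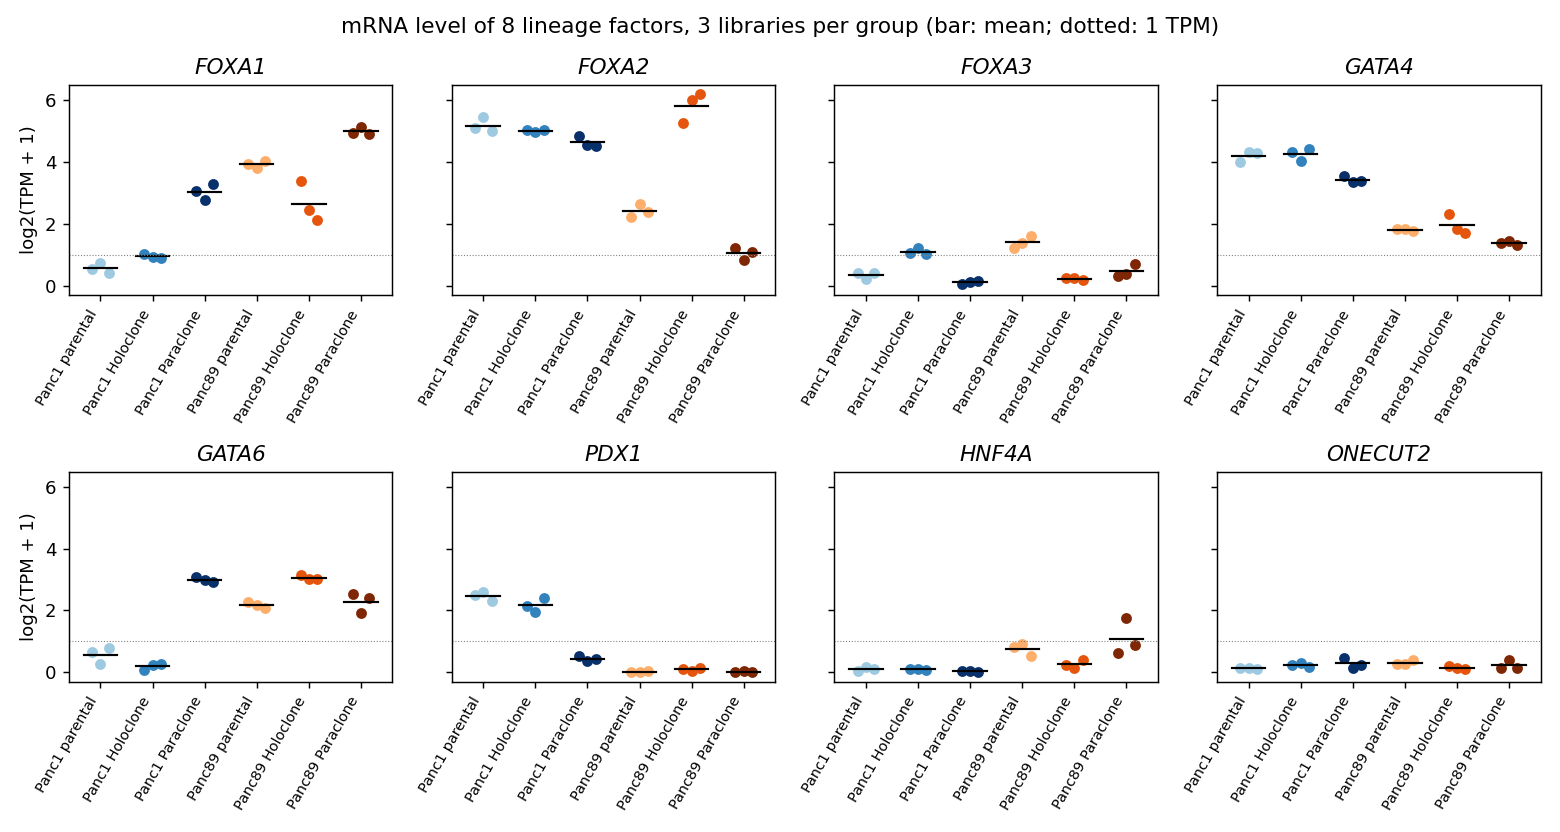
Level of each of the 8 lineage factors as log2(TPM + 1) on a common axis, with 1 point per library, a bar at the mean of each group of 3 and a dotted line at 1 TPM. FOXA1 was highest and FOXA2 lowest in Panc89 Paraclone cells, GATA6 was near 0 in parental and Holoclone Panc1 cells, and ONECUT2 stayed below 1 TPM in every library.

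With these opposite differences, the share of FOXA1 in the summed FOXA level changed within both lines, and in Panc89 the sum changed as well. The summed FOXA level was 36.0 ± 6.19 TPM in parental, 33.1 ± 0.858 TPM in Holoclone and 31.3 ± 3.54 TPM in Paraclone Panc1 cells (SD, n = 3). FOXA1 made up 1.30% ± 0.244, 2.79% ± 0.278 and 23.3% ± 4.28 of that sum, in the same order. In Panc89 cells the sum was 20.2 ± 1.25 TPM in parental, 62.8 ± 14.6 TPM in Holoclone and 32.3 ± 2.06 TPM in Paraclone cells, and FOXA1 made up 70.4% ± 4.17, 10.4% ± 8.48 and 95.4% ± 1.33 of it. By mRNA level, FOXA1 was the main FOXA gene in parental and Paraclone Panc89 cells and FOXA2 in the other 4 groups. Within the 9 Panc89 libraries, which hold only 3 cell variants, Pearson's r between FOXA1 and FOXA2 was -0.96, and within the 9 Panc1 libraries it was -0.80.

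FOXA3, which is best known from liver and gut goblet cells, was low throughout. It reached 1 TPM in all libraries of only 2 groups, parental Panc89 cells (1.34, 1.59 and 2.01 TPM) and Panc1 Holoclone cells (1.07, 1.30 and 1.02 TPM). Panc1 Paraclone cells held 0.0373 to 0.103 TPM, and the log2 difference from Panc1 Holoclone cells was 0.98 (adjusted p = 3.94e-05). In Panc89 the corresponding difference of -0.23 (95% confidence interval -0.52 to 0.05) did not pass the test (adjusted p = 0.197), and the difference between the lines was -1.22 (adjusted p = 0.000149). Both Panc89 clones were below their parental cells, with log2 differences of -1.17 for the Holoclone (adjusted p = 1.16e-05) and -0.94 for the Paraclone cells (adjusted p = 0.000146).

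GATA6 separated the Panc1 clones more than any other member on the log2 scale. The libraries of Panc1 Paraclone cells held 7.52, 6.93 and 6.54 TPM, those of Panc1 Holoclone cells 0.0508, 0.187 and 0.201 TPM and those of parental Panc1 cells 0.568, 0.202 and 0.730 TPM. GATA6 was therefore close to absent in parental and Holoclone cells, and its log2 difference between Holoclone and Paraclone cells was -2.80 (95% confidence interval -3.16 to -2.45, adjusted p = 4.38e-09). In Panc89 cells the difference between the clones had the opposite sign. Holoclone cells measured 7.90, 7.03 and 7.06 TPM, Paraclone cells 4.78, 2.76 and 4.25 TPM and parental cells 3.87, 3.55 and 3.25 TPM, with a log2 difference of 0.78 between the clones (adjusted p = 0.00181). This smaller difference was not called when only the 2 Panc89 clones entered the fit (adjusted p = 0.0522). The difference between the lines was 3.58 (adjusted p = 2.23e-08).

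GATA4 was a Panc1 gene in these libraries, with every Panc1 library above every Panc89 library. It measured 14.9, 18.7 and 18.4 TPM in parental, 19.1, 15.3 and 20.3 TPM in Holoclone and 10.7, 9.17 and 9.41 TPM in Paraclone Panc1 cells. In Panc89 cells it measured 2.55, 2.53 and 2.39 TPM in parental, 3.96, 2.56 and 2.23 TPM in Holoclone and 1.61, 1.72 and 1.48 TPM in Paraclone cells. In both lines all Holoclone libraries were above all Paraclone libraries, by 0.83 on the log2 scale in Panc1 (adjusted p = 0.000687) and by 0.57 in Panc89 (adjusted p = 0.0107). The Panc89 call was lost when only the 2 groups entered the fit (adjusted p = 0.0912), and the difference between the lines was -0.26, with a 95% confidence interval of -0.74 to 0.21 (adjusted p = 0.395).

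The balance of GATA6 to GATA4 thus changed within Panc1 more than within Panc89. GATA6 was 2.85% ± 1.55 of the sum of both in parental, 0.818% ± 0.492 in Holoclone and 41.8% ± 1.13 in Paraclone Panc1 cells (SD, n = 3). In Panc89 it was 58.8% ± 1.37, 71.9% ± 4.83 and 70.2% ± 7.47, in the same order. Across the 9 libraries of a line, which hold only 3 cell variants, Pearson's r between GATA4 and GATA6 was -0.94 in Panc1 and 0.51 in Panc89.

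**Figure D2:**
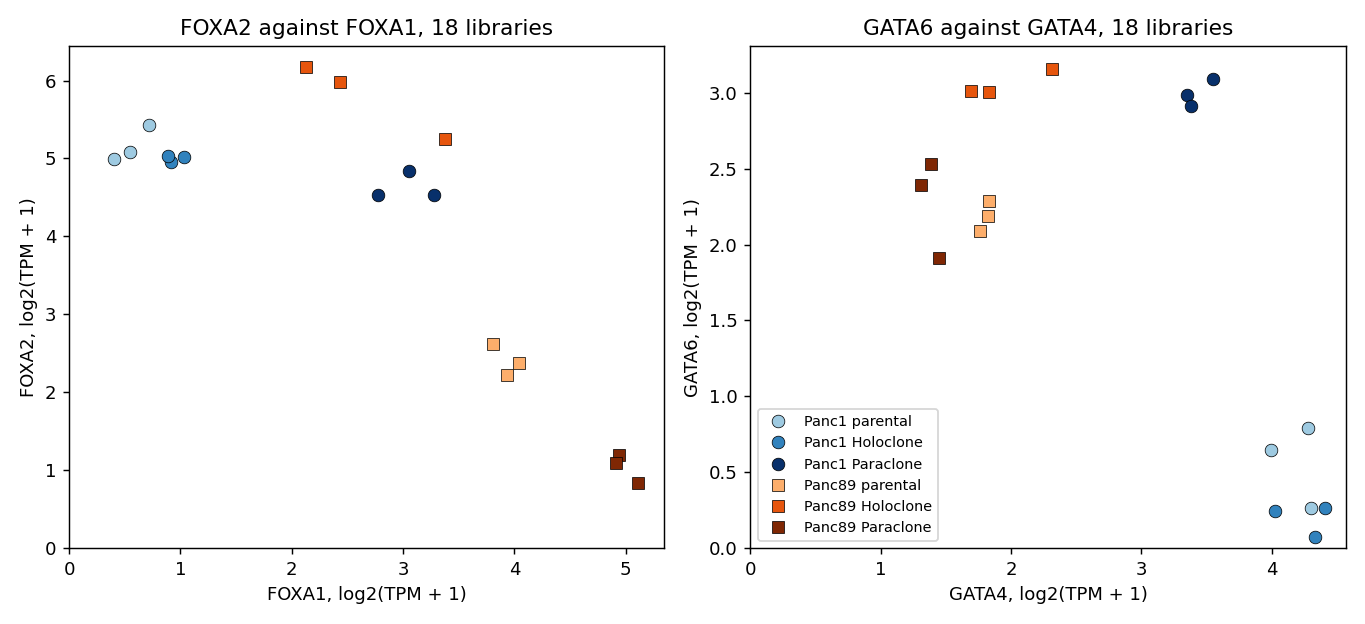
FOXA2 against FOXA1 (left) and GATA6 against GATA4 (right) as log2(TPM + 1), with 1 point per library, circles for Panc1 and squares for Panc89. Panc89 libraries run from high FOXA2 in Holoclone cells to high FOXA1 in Paraclone cells, and the 3 Panc1 Paraclone libraries are the only ones with both GATA4 and GATA6 above 6.5 TPM.

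FOXA1 and GATA6 were the members that both rose in Panc1 Paraclone cells, against parental cells by 2.48 (adjusted p = 1.43e-06) and 2.43 (adjusted p = 3.38e-08) on the log2 scale. Their r was 0.94 over the 9 Panc1 libraries and -0.73 over the 9 Panc89 libraries, each set holding only 3 cell variants. For both, the sequence before a RefSeq transcription start is shown, in GRCh38.p14. It is read 5′ to 3′ on the strand of the gene and limited to bases outside annotated exons of the gene. The FOXA1 stretch is chr14:37595349-37595499 on the minus strand, from 250 to 100 bases before the RefSeq start. It lies inside FOXA1 as annotated in GENCODE, where the gene starts at 37596059, so it is not upstream of that start. Exons of FOXA1 cover 99 of the 250 bases before the RefSeq start. The GATA6 stretch is chr18:22169339-22169588 on the plus strand, the 250 bases before the start, and all 250 lie within the antisense gene GATA6-AS1. Capitals mark the only match to any of 5 searched motifs.
FOXA1: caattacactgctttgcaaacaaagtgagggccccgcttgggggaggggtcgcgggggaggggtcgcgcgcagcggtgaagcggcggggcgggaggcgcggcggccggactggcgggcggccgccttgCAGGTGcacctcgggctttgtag
GATA6: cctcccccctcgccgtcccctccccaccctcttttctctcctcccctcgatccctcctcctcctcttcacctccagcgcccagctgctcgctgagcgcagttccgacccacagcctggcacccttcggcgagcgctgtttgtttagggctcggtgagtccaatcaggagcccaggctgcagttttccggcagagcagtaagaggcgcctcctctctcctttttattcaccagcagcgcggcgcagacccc
Only exact matches to a single form of each motif were looked for, on both strands, so variant forms would be missed. The forms were the forkhead motif TGTTTAC, the GATA motif AGATAA, the HNF4 motif CAAAGTCCA, the ONECUT motif ATCGAT and CAGGTG, the E-box bound by repressors such as ZEB1 and SNAI1. FOXA1 holds the last of these from 122 to 117 bases before its RefSeq start, and GATA6 holds no exact match to any of them in this window. Among 35116 promoters of the same length, 17.5% held CAGGTG, 9.17% AGATAA, 2.98% TGTTTAC, 0.655% ATCGAT and 0.325% CAAAGTCCA, so the match in FOXA1 is a common one. Of the other members, FOXA3, HNF4A and ONECUT2 had an entry among these promoters. The first of 2 HNF4A promoters held an AGATAA, 26 to 21 bases before the start, and a CAGGTG on the opposite strand.

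PDX1 was expressed in parental and Holoclone cells of Panc1 and hardly elsewhere. It measured 4.61, 5.05 and 3.99 TPM in parental, 3.41, 2.88 and 4.30 TPM in Holoclone and 0.443, 0.289 and 0.354 TPM in Paraclone Panc1 cells. The log2 difference between Holoclone and Paraclone cells was 1.72 (95% confidence interval 1.45 to 1.99, adjusted p = 4.76e-08). All Panc89 libraries were at or below 0.0958 TPM, and 2 of them were listed at 0. Accordingly, the Panc89 clones did not differ in the test (0.07 on the log2 scale, 95% confidence interval -0.19 to 0.34, adjusted p = 0.696), and the difference between the lines of -1.65 (adjusted p = 4.06e-06) comes from a gene that is near 0 in 1 of them. Within the 9 Panc1 libraries, which hold only 3 cell variants, PDX1 went with GATA4 (r = 0.94) and against GATA6 (r = -0.95) and FOXA1 (r = -0.97).

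HNF4A and ONECUT2 remained at the lower end. HNF4A was highest in Panc89 Paraclone cells, at 0.530, 2.36 and 0.836 TPM, so that 1 library alone was above 1 TPM. Parental Panc89 cells held 0.768, 0.906 and 0.439 TPM and Panc89 Holoclone cells 0.170, 0.115 and 0.317 TPM, and no Panc1 library exceeded 0.138 TPM. In a limma fit without the filter on low values, HNF4A was lower in Panc89 Holoclone than in Paraclone cells, with a log2 difference of -0.82 (adjusted p = 0.00974). The same fit called it higher in Panc89 than in Panc1 for parental (0.65, adjusted p = 0.0194) and Paraclone cells (1.05, adjusted p = 0.000817). For Holoclone cells it was not called (0.17, adjusted p = 0.591). The Holoclone against Paraclone difference in Panc89 minus that in Panc1 was -0.88 (adjusted p = 0.0448). ONECUT2 ranged from 0.0737 to 0.384 TPM over all 18 libraries, and each group overlapped with the next in the order of means.

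For the order of the 6 groups, FOXA1 fell from Panc89 Paraclone over parental Panc89 to Panc1 Paraclone cells, and only Panc1 Paraclone and Panc89 Holoclone cells overlapped among neighbours. FOXA2 fell from Panc89 Holoclone over parental Panc1 to Panc1 Holoclone cells, whose ranges overlapped, and the other neighbours were separate. GATA6 had its highest levels in Panc89 Holoclone and Panc1 Paraclone cells, which overlapped, and GATA4 in Panc1 Holoclone and parental Panc1 cells, which overlapped as well.

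**Figure D3:**
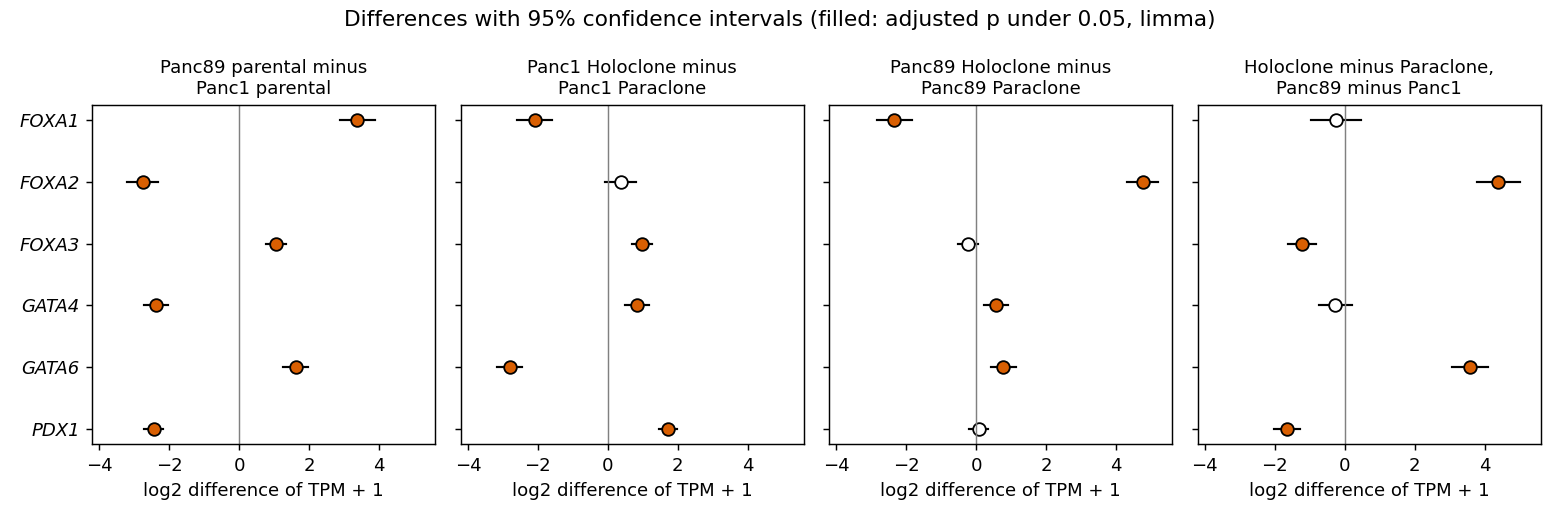
Log2 differences of TPM + 1 with 95% confidence intervals for the 6 tested members in 4 comparisons, with filled points where the adjusted p in limma was under 0.05. FOXA2 and GATA6 show the largest shifts between the lines in the Holoclone against Paraclone difference, at 4.39 and 3.58, while FOXA1 and GATA4 lie near 0.

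Between the parental lines, all 6 tested members differed, 3 higher and 3 lower in Panc89, where 66.0% of all genes tested were called. FOXA1 was 29.8-fold higher in Panc89 (log2 difference 3.37), GATA6 was higher by 1.62 and FOXA3 by 1.06. FOXA2 was 8.15-fold lower in Panc89 (-2.76), GATA4 6.97-fold lower (-2.39) and PDX1 lower as well (-2.45), with adjusted p from 1.11e-10 to 4.51e-06 over the 6 genes. The median of the members was -0.67, beside -0.18 for all genes.

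Between the Panc1 clones, 5 of 6 members were called, 3 higher and 2 lower in Holoclone cells, against a background of 37.3% of genes, and the members' median was 0.60 beside 0.19 for all genes. Between the Panc89 clones, 4 of 6 were called, 3 higher and 1 lower in Holoclone cells, against 35.7%, with a median of 0.32 beside 0.09. The count in Panc89 was 2 when only these 2 groups entered the fit. The difference of both differences was called for 4 of 6 members, 2 in each direction, against 35.1% of genes. It draws on the same libraries as the comparisons within the lines.

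Like cell variants of the 2 lines were also compared. All 6 members differed between the Holoclone cells of Panc89 and Panc1, 3 in each direction, where 65.8% of genes were called. FOXA2 was higher in Panc89 Holoclone cells by 0.80 (adjusted p = 0.00279), the opposite sign to the parental cells, and FOXA3 was lower (-0.86, adjusted p = 3.73e-05), again opposite to the parental cells. Between the Paraclone cells, all 6 differed as well, 2 higher and 4 lower in Panc89, where 60.7% of genes were called. Here FOXA2 was 22.3-fold lower in Panc89 (-3.59, adjusted p = 3.83e-10) and GATA6 lower (-0.72, adjusted p = 0.00147). The FOXA3 difference of 0.35 (adjusted p = 0.0322) was lost without replicate 3 of the Panc89 Paraclone cells (adjusted p = 0.174) and without any 1 of the 3 Panc1 Paraclone libraries (adjusted p from 0.0536 to 0.0821).

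Each clone was finally set against its parental cells, which share their libraries between both comparisons of a line. Panc1 Holoclone cells were closest to their parental cells, with 1 of 6 members called where 10.9% of genes were, namely FOXA3, higher by 0.74 (adjusted p = 0.00176). In Panc1 Paraclone cells, 4 of 6 members were called where 28.6% of genes were, FOXA1 and GATA6 higher and GATA4 (-0.76, adjusted p = 0.00207) and PDX1 (-2.02, adjusted p = 1.14e-08) lower. In Panc89 Holoclone cells, 4 of 6 were called beside 24.7% of genes, FOXA2 (3.40, adjusted p = 1.30e-08) and GATA6 (0.87, adjusted p = 0.00118) higher and FOXA1 (-1.28, adjusted p = 0.00087) and FOXA3 lower. In Panc89 Paraclone cells, 3 of 6 were called beside 19.4% of genes, FOXA1 (1.06, adjusted p = 0.00453) higher and FOXA2 (-1.36, adjusted p = 0.000217) and FOXA3 lower. GATA4 was not called there (-0.42, adjusted p = 0.0748). It passed with a pseudocount of 0.1 TPM, with either other scaling and with only the compared groups in the fit (adjusted p from 0.0347 to 0.0471).

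Relatives of the members that were not chosen by name were present at higher levels than some members. GATA5, the third GATA gene of the endoderm, fell from 36.3 TPM in Panc1 Holoclone to 7.52 TPM in Panc1 Paraclone cells, a log2 difference of 2.13 (adjusted p = 9.58e-09), and was at or below 2.10 TPM in all Panc89 libraries. GATA2 and GATA3, known from blood, nerve and squamous epithelium, reached 41.6 TPM in parental Panc1 and 30.0 TPM in Panc1 Paraclone cells. GATA3 was lower in Panc1 Holoclone than in Paraclone cells (-1.90, adjusted p = 2.75e-05). Of the endoderm GATA genes, GATA4 and GATA5 were above 5 TPM in Panc1 Holoclone cells, and GATA4, GATA5 and GATA6 were above it in Panc1 Paraclone cells.

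Among the other relatives, ONECUT3 was the expressed ONECUT gene. It measured 17.1 TPM in parental, 2.42 TPM in Holoclone and 21.4 TPM in Paraclone Panc1 cells (log2 difference between the clones -2.69, adjusted p = 3.22e-06) and 5.97 to 7.49 TPM as group means in Panc89. HNF4G, the relative of HNF4A in gut, had group means from 0.517 to 3.50 TPM, with the highest in Panc89 Holoclone cells. ONECUT1 did not exceed 0.269 TPM in any library, and GATA1, the factor of red blood cells, was listed at 0 in all 18. Of 7 relatives 5 were tested. Between the parental lines 4 were lower in Panc89 and 1 was not called, where 66.0% of all genes tested were called. Between the Panc1 clones 1 was higher and 3 lower in Holoclone cells, beside 37.3% of genes called. Between the Panc89 clones 1 was higher and 2 lower, beside 35.7%.

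**Figure D4:**
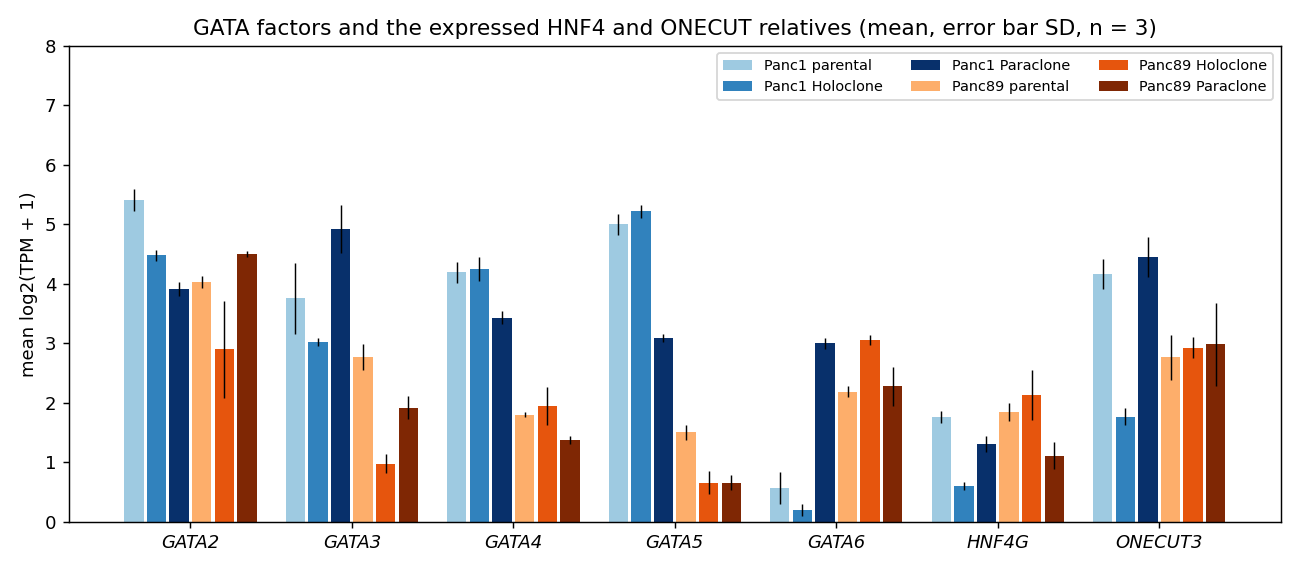
Mean log2(TPM + 1) with SD (n = 3) of 5 GATA genes, HNF4G and ONECUT3 in the 6 groups. GATA5 is above 7 TPM in all Panc1 groups and below 2 TPM as a group mean in Panc89, and GATA3 and ONECUT3 have their lowest Panc1 mean in the Holoclone cells.

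Long non-coding RNAs that lie beside the members were low, except for LINC00261 in Panc1. GATA6-AS1, transcribed from the strand opposite to GATA6 and overlapping its first 290 bases, was highest where GATA6 was, at 1.25 TPM in Panc89 Holoclone and 0.869 TPM in Panc1 Paraclone cells as group means (r = 0.91 over 18 libraries). The libraries were made with a stranded kit, but the strand setting of the quantification is not given in the sources used here, so reads from this overlap could belong to either gene. LINC00261, which lies 2355 bases beyond the end of FOXA2 on the same strand, stayed near 0 in Panc89. It measured 6.76, 6.98 and 2.28 TPM in parental, Holoclone and Paraclone Panc1 cells, and 0.107, 0.124 and 0.0203 TPM in the same variants of Panc89, while FOXA2 reached its highest level in Panc89 Holoclone cells. The Panc89 order of the means was that of FOXA2, at these low levels. PLUT beside PDX1 and HNF4A-AS1 within HNF4A did not exceed 0.227 TPM in any library.

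Other factors of foregut and pancreas varied widely in level. PTF1A of acinar cells did not exceed 0.162 TPM. SOX9, the factor of pancreatic ducts, was expressed in all groups, with means from 11.0 TPM in Panc89 Holoclone to 98.6 TPM in parental Panc1 cells. Of 28 listed factors 17 were tested. Between the parental lines 7 were higher and 8 lower in Panc89, where 66.0% of all genes tested were called. The gut and squamous factor KLF5 differed most, with 169 TPM in Panc89 and 2.70 TPM in Panc1 (log2 difference 5.57, adjusted p = 3.66e-12). Between the Panc1 clones 7 were higher and 3 lower in Holoclone cells. Of all genes tested 37.3% were called there, and 73.3% of those calls were higher in Holoclone cells. Among the higher factors was CDX2, the intestinal homeodomain factor, with 5.44 TPM in Holoclone and 0.0838 TPM in Paraclone cells (2.51, adjusted p = 2.29e-06). Between the Panc89 clones 3 were higher and 4 lower in Holoclone cells, where 35.7% of all genes tested were called. KLF4 was higher (170 against 44.4 TPM, adjusted p = 0.000415) and SPDEF, the goblet cell factor, lower in Holoclone cells (5.26 against 20.0 TPM, adjusted p = 0.00178).

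Cofactors and partners of the members were mostly expressed. Of 22 listed genes 21 were tested, and 10 were higher and 3 lower in Panc1 Holoclone than in Paraclone cells, with a median of 0.25 beside 0.19 for all genes. Of all genes tested 37.3% were called in this comparison, and 73.3% of those calls were higher in Holoclone cells. With median-of-ratios scaling these counts were 8 and 4. In Panc89, 5 were higher and 1 lower in Holoclone cells, where 35.7% of all genes were called. The acetyltransferase CREBBP was higher in Holoclone cells of Panc1 by 1.16 (adjusted p = 0.000299) and of Panc89 by 1.45 (adjusted p = 4.09e-05), and the corepressor TLE1 was lower in Panc1 Holoclone cells (-1.22, adjusted p = 7.48e-07). Between the parental lines 7 were higher and 7 lower in Panc89, where 66.0% of all genes were called, and SMARCA4, the ATPase of a chromatin remodeling complex, was higher there (66.8 against 12.8 TPM, adjusted p = 1.43e-10).

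Genes known as markers of the classical type or as targets of these factors in gut were called in both directions. Of 24 listed genes 13 were tested. Between the parental lines, 9 were higher and 2 lower in Panc89, where 66.0% of all genes were called. Their median was 1.94 beside -0.18 for all genes. They were led by ST6GALNAC1, a glycosyltransferase of mucins (26.4 against 0.225 TPM, adjusted p = 3.64e-10). Between the Panc89 clones, 2 were higher and 5 lower in Holoclone cells, beside 35.7% of all genes called. The secreted gut protein AGR2 was higher there, at 440 against 10.2 TPM (5.38, adjusted p = 2.69e-07), whereas CEACAM6, MUC13 and the trefoil factor TFF2 were lower, at 57.8 against 477 TPM, 1.62 against 13.6 TPM and 0.510 against 8.52 TPM (adjusted p = 0.000283, 1.58e-06 and 0.000171). Between the Panc1 clones, 2 were higher and 1 lower in Holoclone cells, beside 37.3% of all genes called. The lower one was CDH17, the cadherin of intestine, with 0.328 TPM in Holoclone and 7.18 TPM in Paraclone cells (-2.62, adjusted p = 2.93e-10). With the other 2 scalings, 1 was higher and 1 lower.

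Targets of the same factors in liver were near absent. Of 23 genes 4 were tested, and the sum of all 23 was between 3.58 and 8.34 TPM in every library. Between the parental lines 3 of the 4 were higher in Panc89 and 1 was not called, where 66.0% of all genes were called.

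The genes whose levels were most like each member's were taken from 12732 candidates across 18 libraries, as a description. For FOXA1 these were FYB1 and RALGPS2, with r = 0.98 for each as measured and 0.96 and 0.95 after the mean of each line had been subtracted. For FOXA2, ADAMTS1 and CAPNS2 led after this subtraction (r = 0.98 each), and PLCH2 and GLI1 as measured (0.96 and 0.95). GATA6 was followed by COL4A5 (0.98) and KIAA0040 (0.97) within the lines, GATA4 by JAG2 (0.93) and SEMA4D (0.92), FOXA3 by NTS (0.95) and PDX1 by CCDC8 and STEAP1B (0.99 each). The 18 points stand for 6 cell variants, so that many genes that separate the same variants reach such values.

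Correlations between libraries of a group ranged from 0.954 to 0.992, mitochondrial transcripts made up 5.62% to 9.44% of the TPM, and 12932 to 14199 genes reached 1 TPM. Of the ductal and epithelial markers, KRT19 was high in both lines, with group means from 222 to 1651 TPM, while CDH1, which encodes E-cadherin, had group means from 0.990 to 2.84 TPM in Panc1 and from 75.3 to 98.0 TPM in Panc89. KRT7 had 11.9 TPM in parental Panc1 and 1686 TPM in parental Panc89 cells (adjusted p = 5.89e-13). Between the parental lines, 4 of the 6 markers were higher in Panc89, 1 was lower and 1 was not called. Between the Holoclone cells of the lines, 4 were higher and 2 lower in Panc89. Of all genes tested, 66.0% and 65.8% were called in these comparisons. In Panc1 Holoclone cells, where GATA6 and FOXA1 were lower than in Paraclone cells, EPCAM was higher (29.2 against 1.73 TPM, 3.48, adjusted p = 1.10e-10) and KRT19 lower (222 against 1225 TPM, -2.48, adjusted p = 7.18e-06). Of the 6 markers, 3 were higher and 2 lower in these Holoclone cells, and 37.3% of all genes tested were called. With either other scaling, 1 marker was higher and 2 were lower. In Panc89 Holoclone cells, where FOXA2 was higher and FOXA1 lower than in Paraclone cells, 4 of the 6 markers were lower and 2 were not called, with log2 differences of -1.05 for KRT7, -0.98 for KRT8, -0.89 for KRT18 and -0.65 for EPCAM (adjusted p from 0.0018 to 0.00787). Of all genes tested, 35.7% were called between the Panc89 clones. The part of these epithelial differences in those of the members was not tested. Acinar and endocrine markers summed to at most 1.36 and 0.283 TPM in any library. The 5 immune markers summed to 9.44 to 150.6 TPM, nearly all of it CD68, while PTPRC stayed below 1 TPM and CD3E reached at most 0.0361 TPM. The 5 fibroblast markers summed to 1.30 to 27.3 TPM, and their part and that of CD68 in the differences between clones was not tested. The endothelial list differed between groups, with sums of 55.2 to 69.1 TPM in parental Panc89 cells, mostly PECAM1, 1.01 to 2.17 TPM in Panc89 Holoclone, 2.95 to 8.90 TPM in Panc89 Paraclone and at most 0.416 TPM in Panc1 cells, and its part in the differences between parental Panc89 cells and the clones was not tested.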

How the data were processed

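The members, gene lists and tests were chosen with earlier results of these data known. RNA of 3 passages per cell variant was isolated by the authors, prepared with a stranded mRNA kit, quantified with kallisto 0.46.1 on GRCh38 and deposited as 1 log2 value of scaled TPM plus 1 per gene symbol and library. Because TPM hold no read totals, library depth is unknown. Libraries were grouped by their labels, and TPM were obtained by reversing the log2. Genes that reached 1 TPM in 3 or more libraries were fitted in limma 3.58.1 (R 4.3.3) with 1 mean per group over all 18 libraries, an intensity trend in the variance prior and Benjamini-Hochberg adjustment over 16093 genes. The procedure was run on simulated data with independent noise for the comparison of the Panc89 clones. It called 167 of 200 changed genes, and 58 of 88 that were changed by 1 on the log2 scale. Dependence between passages and the scaling of the libraries were not part of this simulation. Intervals are 95% confidence intervals of the fit.

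Named are all members and, per list, up to 4 called genes with the largest change, a mean of at least 5 TPM and groups without overlap in the 3 main comparisons, of which those with a clear role are printed. Family relatives that reached a group mean of 1 TPM are named with their levels. List genes named for being near 0, and SOX9, were chosen after their values were seen. Gene positions are from GENCODE 44 and promoters from RefSeq, which held 5 of the 8 members. Other pseudocounts, filters, scalings, groups in the fit, a replicate block and leaving out each library were tried.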

Additional observations from a re-analysis of the deposited data

Results flagged for a closer look

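For 4 of the 6 tested members, the Holoclone against Paraclone difference was not the same in Panc89 and Panc1, by a test of the difference between both lines in limma. The FOXA2 difference in Panc89 exceeded that in Panc1, which was not called on its own, by 4.39 on the log2 scale (SE 0.29, adjusted p = 2.27e-08), with the 3 Panc89 Holoclone libraries above all Panc89 Paraclone libraries. GATA6 turned its direction, being lower in Holoclone than in Paraclone cells in Panc1 and higher in Panc89, which gives a difference of 3.58 (SE 0.24, adjusted p = 2.23e-08). FOXA3 differed by -1.22 (SE 0.19, adjusted p = 0.000149), at levels that were below 1 TPM in 3 of the 4 groups compared. PDX1 differed by -1.65 (SE 0.18, adjusted p = 4.06e-06), and its Panc89 levels were near 0. Each clone group is 1 clone, so a difference between lines cannot be told apart from a difference between these clones.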

How the results depend on the processing

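Counts of called members stayed within 1.5 times the reported count in 151 cases and left this range in 5. Where at least 5 TPM in 3 libraries were required, PDX1 and FOXA3 were no longer tested, and the called members were 3 for the Panc1 clones, 0 for Panc1 Holoclone against parental cells and 2 for the difference between the lines. With a pseudocount of 0.1 TPM, 2 members were called for Panc1 Holoclone against parental cells, the second being GATA6 (adjusted p = 0.0312). With only the compared groups in the fit, 2 members were called between the Panc89 clones, and 3377 in place of 5746 genes. Values that turned their direction were all uncalled ones. The FOXA1 difference between the lines was 0.29 with the pseudocount of 0.1 TPM and ranged from -0.61 to 0.010 when 1 library was left out. In the same way, GATA4 ranged from -0.034 to 0.18 for Panc1 Holoclone against parental and from -0.039 to 0.27 for Panc89 Holoclone against parental cells. GATA6 ranged from -0.036 to 0.27 and PDX1 from -0.014 to 0.0082 for Panc89 Paraclone against parental cells. The cause of these shifts was not tested. Median-of-ratios scaling moved the median of all genes by 0.20 between the parental lines and by -0.19 between the Panc1 clones, where 73.3% of calls were higher in Holoclone cells as reported and 46.8% after this scaling. Deviations of same-numbered libraries of a line from their group means correlated with r from -0.32 to 0.19 over 18 pairs. Differently numbered libraries were not compared, so whether the numbers pair libraries was not settled. With a replicate block 6, 5 and 4 members were called in the first 3 comparisons, as without it.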
